A study of Mus musculus with 18 samples.

Results

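Whole spleens of mice that breathed filtered air or PM2.5, fine airborne particles, for 30 days were compared across all genes of the count table. The members were the 8 spleen libraries among 18 libraries in the series. 4 came from air and 4 from PM2.5 animals, and they were chosen by their titles and column names. The other 10 libraries were of macrophages isolated from spleen and entered no test described here except 1 alternative fit. All 8 spleens were of wild type C57BL/6J mice with no transgene or deletion named. The air group carries the treatment tag Air exposure, and the PM2.5 group carries the tag CAP exposure, an abbreviation that the labels do not expand. Titles number the libraries of each group as biological replicates 1 to 4. They do not say whether a number stands for 1 mouse or a pool, and age, sex and time of day of collection are not given in the labels used here. Polyadenylated RNA of the whole tissue was sequenced, so in every result below fewer cells of a type and less RNA per cell cannot be told apart.

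The spleen filters blood. Its red pulp holds venous sinuses lined by a specialised endothelium, cords of macrophages that engulf aged red cells and recycle their iron, and, in mice, erythroid precursors that expand when the demand for red cells is high. Its white pulp holds B cell follicles and T cell zones on a scaffold of reticular cells, and the organ is wrapped in a capsule covered by mesothelium. A change in any of these compartments shifts the share of each transcript in the RNA of the whole organ.

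The libraries were of like depth and carried the genes that define the tissue. Total counts lay between 16493694 and 20352346 in air and between 18427891 and 19906706 in PM2.5 libraries. Genes with at least 1 count numbered 19694 to 22870 in air and 21700 to 23792 in PM2.5 libraries. Cd79b, part of the B cell receptor, stood between 736 and 1261 CPM (the read count scaled to a common library total) in all 8 libraries. Tlx1, a transcription factor of the spleen's own mesenchyme, stood between 4.23 and 22.0 CPM. Ddx3y, a gene of the Y chromosome, stood between 127 and 180 CPM in every library, and Xist had 4 counts over the air and 9 over the PM2.5 libraries. Pearson correlations of log2 levels were 0.959 to 0.981 within air, 0.964 to 0.983 within PM2.5 and 0.941 to 0.985 between the groups. On the first principal component, with 37.1% of the variance, air library 2 (-8.67) lay nearest to PM2.5 library 1 (7.01). PM2.5 libraries 2 (36.4) and 4 (49.96) lay farthest from the other air libraries (-37.0 to -32.0). Reads of the mitochondrial genome made up 6.87%, 2.72%, 4.90% and 3.04% of counts in air libraries 1 to 4 and 2.23%, 5.76%, 2.43% and 2.43% in PM2.5 libraries 1 to 4.

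Clca3a1 and Gdpd2 rose. They were the 2 genes, 0.0121% of 16551 tested, that passed an adjusted p of 0.05 in edgeR's quasi-likelihood test, and no gene passed in the lower direction. Clca3a1 belongs to a family of regulators of calcium-activated chloride channels and was among the sinus endothelium genes listed for this comparison. It stood at 8.56, 5.03, 4.97 and 4.30 CPM in air libraries 1 to 4 and at 23.9, 32.1, 24.6 and 33.4 CPM in PM2.5 libraries 1 to 4. The lowest PM2.5 library was thus well above the highest air library, and the PM2.5 libraries were close to each other. The log2 fold change was 2.32 (SE 0.25, n = 4 per group, edgeR adjusted p = 0.0234). Gdpd2, a glycerophosphodiester phosphodiesterase domain protein of the membrane, stood at 1.53, 1.02, 0.529 and 2.75 CPM in air and at 15.2, 13.6, 15.8 and 25.4 CPM in PM2.5 libraries. Its groups did not overlap either, and its log2 fold change was 3.60 (SE 0.44, n = 4 per group, edgeR adjusted p = 0.0474). DESeq2 called both, and limma-voom called Clca3a1 (adjusted p = 0.0242) and not Gdpd2 (adjusted p = 0.105). Without air library 3, or without PM2.5 library 2, 3 or 4, edgeR called no gene. Without air library 1 Gdpd2 was not called (edgeR adjusted p = 0.0786), and without air library 4 Clca3a1 was not (0.0742).

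The relatives of the 2 genes differed less. Of the glycerophosphodiester phosphodiesterase family, 6 of 7 listed genes were tested, and the 5 others had log2 fold changes between -0.55 and 0.30, none past the threshold. Gpcpd1, a cytosolic relative, was the most abundant of them in CPM, with 130 to 137 CPM in air and 133 to 217 CPM in PM2.5 libraries. Of the Clca family, 6 of 8 listed genes did not pass the filter on low counts. Clca2, the other tested one, stood at or below 1.19 CPM in every library. The Clca genes lie side by side and share sequence, and how the authors' counting dealt with reads that fit several of them is not given in the sources used here. In the isolated macrophages, scaled over all 18 libraries together, Clca3a1 lay between 2.5 and 6.85 CPM and Gdpd2 between 0.902 and 2.43 CPM.

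The stretches before the starts of the 2 called genes are shown because these genes carry the only calls, and so that they can be set beside promoters of erythroid genes further on. Both are from RefSeq on GRCm38.p6, 250 bases up to the base before the annotated start, and lie at chr3:144760978-144761227 on the minus strand and chrX:100729597-100729846 on the plus strand.
Clca3a1: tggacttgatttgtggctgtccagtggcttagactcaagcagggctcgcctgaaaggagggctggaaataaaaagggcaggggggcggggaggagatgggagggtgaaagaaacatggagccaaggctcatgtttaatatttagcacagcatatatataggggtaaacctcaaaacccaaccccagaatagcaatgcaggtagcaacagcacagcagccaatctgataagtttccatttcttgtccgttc
Gdpd2: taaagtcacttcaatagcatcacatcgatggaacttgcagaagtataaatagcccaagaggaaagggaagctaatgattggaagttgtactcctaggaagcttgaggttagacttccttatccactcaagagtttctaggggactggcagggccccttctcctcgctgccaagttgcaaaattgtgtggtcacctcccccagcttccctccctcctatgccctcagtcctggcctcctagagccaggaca
They were searched on both strands for the letters AGATAA, 1 of several forms of the site that GATA factors bind, and CACACCC, a site type bound by KLF1. Neither string occurs in these windows, so no capitals appear. Other forms of the GATA site were not searched. Clca3a1 lies on chromosome 3 at 144729677 to 144760977 and Gdpd2 on chromosome X at 100729873 to 100738895 in GENCODE's annotation of the same genome.

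Beyond these calls the groups differed broadly, with the larger differences on the higher side. At an unadjusted p under 0.05, 1478 genes (8.93%) were higher and 1285 (7.76%) lower. The groups did not overlap in 730 genes (4.41%) that were higher and 752 (4.54%) that were lower in every PM2.5 library. Fold changes of at least 2 were fitted for 1261 genes in the higher and 207 in the lower direction, and of at least 4 for 333 and 15. Among those with at least 4-fold, 172 higher and 2 lower genes had groups that did not overlap. The genes that were lower without overlap were thus mostly shifted by small amounts and the higher ones often by large amounts. DESeq2 called 542 genes (3.27%) higher and 288 (1.74%) lower. The median log2 fold change of all tested genes was 0.02, and 51.8% of them were higher.

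**Figure D1:**
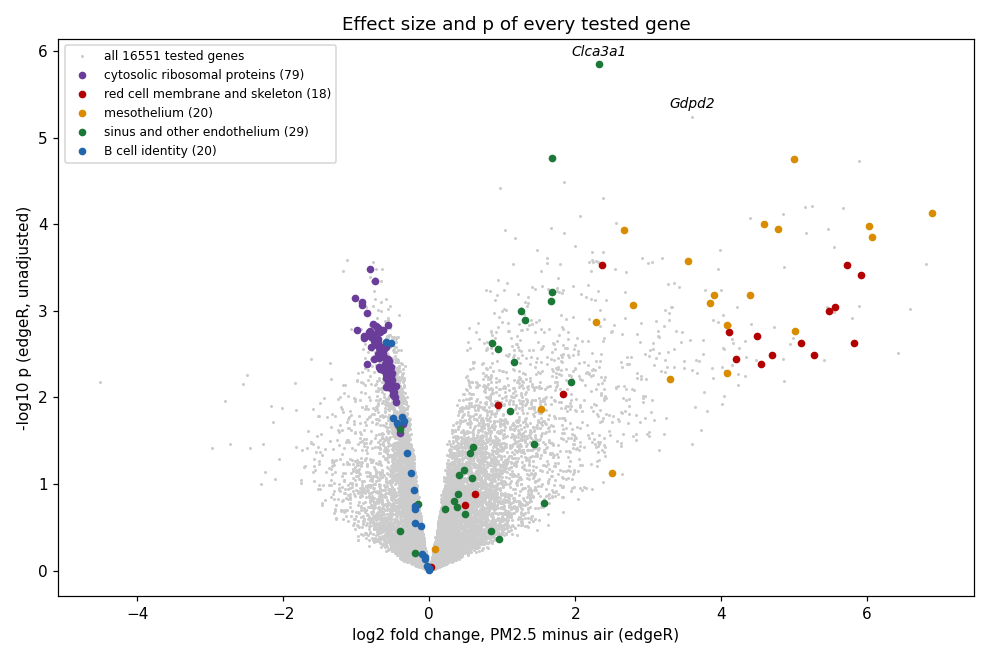
Each grey point is 1 of 16551 tested genes, with its log2 fold change (PM2.5 minus air, edgeR) on the x axis and the negative log10 of its unadjusted p on the y axis, and coloured points are members of 5 gene lists. Mesothelial and red cell membrane genes reach far to the right, with log2 fold changes up to 6.89, while all 79 ribosomal protein genes form a narrow group to the left of 0 and Clca3a1 and Gdpd2 stand at the top.

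Among the 15 genes of smallest p that were higher in every PM2.5 library, several belong to the endothelium and the mesothelium. Stab2, a scavenger receptor of sinus endothelium, stood at 16.5, 13.3, 8.78 and 13.3 CPM in air and at 35.4, 31.3, 44.0 and 55.1 CPM in PM2.5 libraries (log2 fold change 1.68, SE 0.23, edgeR adjusted p = 0.0613). Gpr182, an atypical chemokine receptor of endothelium, stood at 1.99, 2.83, 2.22 and 2.99 CPM in air and at 6.87, 8.69, 8.52 and 12 CPM in PM2.5 libraries (log2 fold change 1.84, SE 0.27, edgeR adjusted p = 0.0845). Igfbp7, a secreted growth factor binding protein, was abundant in both groups, at 168, 238, 160 and 193 CPM in air and 356, 331, 378 and 422 CPM in PM2.5 libraries. All 3 missed the threshold. That they were higher in each PM2.5 library follows from the rule by which these 15 genes were chosen. Hs6st2, which adds sulfate to heparan sulfate chains, stood at 1.64 to 3.05 CPM in air and 7.01 to 17.7 CPM in PM2.5 libraries. Ptpru, a receptor tyrosine phosphatase, had 8 counts over the 4 air libraries and 274 over the 4 PM2.5 libraries. Cyp21a1, the steroid 21-hydroxylase, had 9 and 236 counts. Fmo2, a flavin-containing monooxygenase, stood at 0.159 to 0.802 CPM in air and at 5.28, 11.7, 46.0 and 52.6 CPM in PM2.5 libraries 1 to 4, so that its PM2.5 libraries spanned a wide range without reaching the air range.

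**Figure D2:**
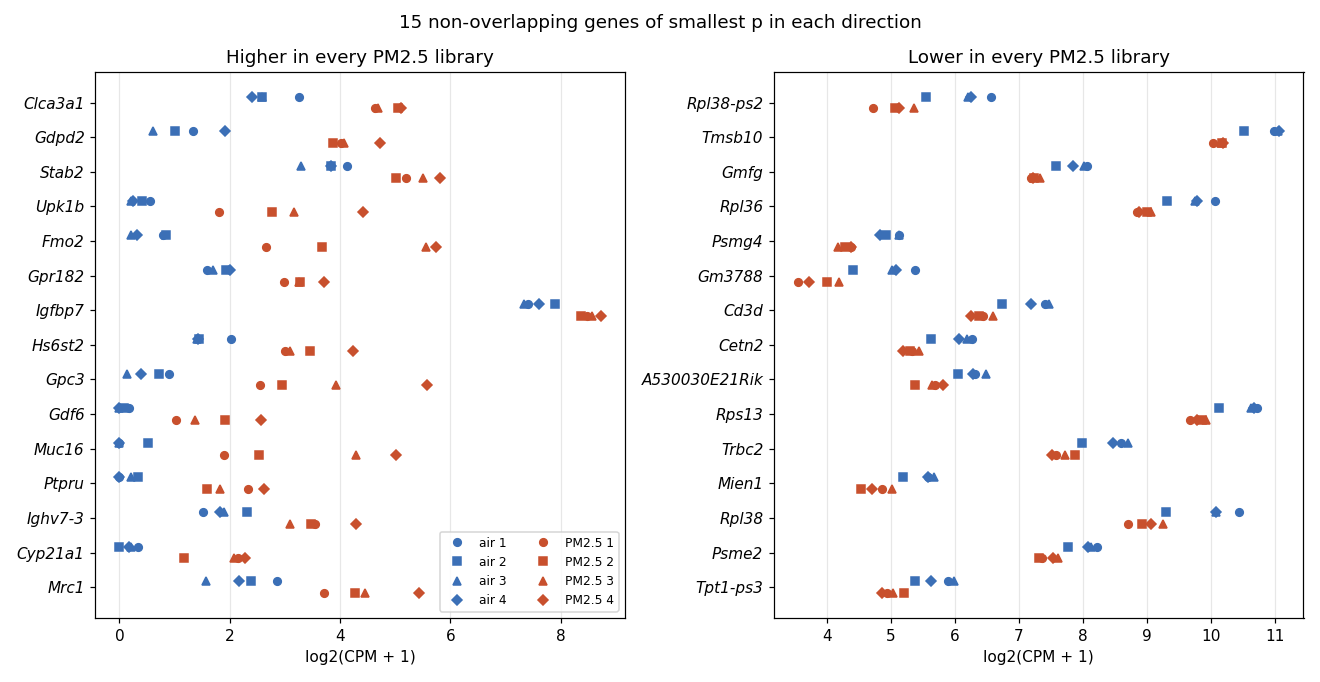
Each point is 1 library (blue air, red PM2.5, the shape giving the replicate), with log2(CPM + 1) on the x axis and genes on the y axis, for the 15 non-overlapping genes of smallest p in each direction. The red points of Clca3a1, Gdpd2 and Igfbp7 lie close together, while those of Fmo2, Gpc3, Muc16 and Upk1b spread from PM2.5 library 1 to PM2.5 library 4, and the lower genes on the right are mostly abundant ones with small shifts.

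Genes of the splenic sinus and other endothelium were mostly higher after PM2.5. 25 of 29 tested genes were higher, against 51.8% of all genes, 9 of them without overlap, against 4.41% of all genes. Their median log2 fold change was 0.85. DESeq2 called 11 of them higher and none lower, against 3.27% and 1.74% of all genes. Besides Clca3a1 and Stab2 the non-overlapping members were Stab1, Cldn5, Sox18, Eng, Tie1, Plvap and Bmp6. Cldn5, a tight junction protein of endothelium, stood at 2.99, 4.81, 3.70 and 6.24 CPM in air and at 12, 7.54, 14.7 and 22.9 CPM in PM2.5 libraries. Plvap, which forms the diaphragms of fenestrated endothelium, stood at 21.9, 62.9, 28.5 and 49.8 CPM in air and at 74.5, 90.4, 68.7 and 130 CPM in PM2.5 libraries, with air library 2 closest to the PM2.5 range. Cdh5, the endothelial cadherin, overlapped, with 18.1 to 20.8 CPM in air and 19.1 to 26.2 CPM in PM2.5 libraries (log2 fold change 0.21, SE 0.15). Pecam1, which leukocytes and platelets also carry, had 182 to 214 and 173 to 196 CPM. Clec4g, a lectin of sinusoidal endothelium, is not on the list and was chosen after its values were seen. It was at 0.398 to 1.96 CPM in air and 3.0 to 5.55 CPM in PM2.5 libraries, without overlap. The members of the list thus ranged from a rise of several fold in Clca3a1 to a small difference with overlapping groups in Cdh5. The list level, the mean of log2(CPM + 1) over its members, was 3.19 to 3.49 in air and 3.58 to 4.43 in PM2.5 libraries. Library 1 was the lowest of the PM2.5 libraries.

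Mesothelial genes, which mark the outer covering of the organ, were higher in each of the 4 PM2.5 libraries. All 20 tested genes were higher, 11 without overlap (55%, against 4.41% of all genes), with a median log2 fold change of 3.99. Several members were near 0 in air. Muc16, Upk1b and Cdh3 had 8, 19 and 3 counts in air and 1129, 717 and 258 in PM2.5 libraries. Such genes passed the count filter only through the PM2.5 group and could only be counted as higher, which limits what these shares show. DESeq2 called 15 of the 20, against 3.27% of all genes. Msln, the mesothelial surface protein mesothelin, stood at 1.93, 1.07, 2.22 and 0.125 CPM in air and at 12.5, 9.996, 35.3 and 72.0 CPM in PM2.5 libraries. Upk3b, a mesothelial membrane protein, stood at 0.266, 0.909, 0 and 0.686 CPM in air and at 2.52, 12.2, 39.8 and 72.4 CPM in PM2.5 libraries. Muc16, a membrane mucin, had 8 counts in air, all in library 2, and 1129 counts in PM2.5 libraries. All PM2.5 libraries were above all air libraries for these genes, and PM2.5 library 4 held the highest value of each. The list level was 1.23, 1.51, 1.01 and 0.98 in air and 2.33, 2.80, 3.89 and 4.69 in PM2.5 libraries 1 to 4. With any 1 library left out the median stayed between 3.18 and 4.44. Wt1, a transcription factor of mesothelium and of stromal precursors, had 1.87 to 2.48 CPM in air and 6.55, 6.83, 14.0 and 27.8 CPM in PM2.5 libraries. Gpc3, a surface proteoglycan, had 0.106 to 0.863 CPM in air and 4.86 to 46.8 CPM in PM2.5 libraries. How each organ was trimmed of capsule and attached tissue is not given in the labels, and the part of dissection in this shift was not tested.

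Of the stromal genes most were higher. 23 of 29 tested genes of reticular, follicular and smooth muscle cells were higher, 6 without overlap (20.7%, against 4.41% of all genes). Their median log2 fold change was 0.64. Tcf21, a mesenchymal transcription factor, stood at 5.38, 0.856, 3.23 and 1.31 CPM in air and at 13.4, 12.7, 19.5 and 35.2 CPM in PM2.5 libraries. Tlx1 stood at 4.45, 6.26, 4.23 and 7.61 CPM in air and at 8.32, 9.34, 14.7 and 22.0 CPM in PM2.5 libraries. 6 members had lower means, among them 3 chemokines of white pulp stroma. Ccl19, which draws T cells and dendritic cells, stood at 192, 116, 170 and 158 CPM in air and at 95.0, 96.5, 128 and 78.1 CPM in PM2.5 libraries (log2 fold change -0.68, SE 0.18, edgeR adjusted p = 0.135). Ccl21a and Cxcl13 had log2 fold changes of -0.36 (SE 0.21) and -0.14 (SE 0.16), and both overlapped. Of the matrix genes 35 of 36 were higher, 11 without overlap (30.6%, against 4.41% of all genes), with a median of 0.87. All 14 collagens among them were higher. Col3a1, a fibrillar collagen, stood at 38.0, 30.6, 25.8 and 15.5 CPM in air and at 43.0, 51.8, 74.2 and 223 CPM in PM2.5 libraries, where library 4 stood apart. Lamb2, a laminin chain of vessel basement membranes, stood at 14.5, 24.3, 9.68 and 11.7 CPM in air and at 24.8, 30.7, 39.1 and 57.1 CPM in PM2.5 libraries.

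**Figure D3:**
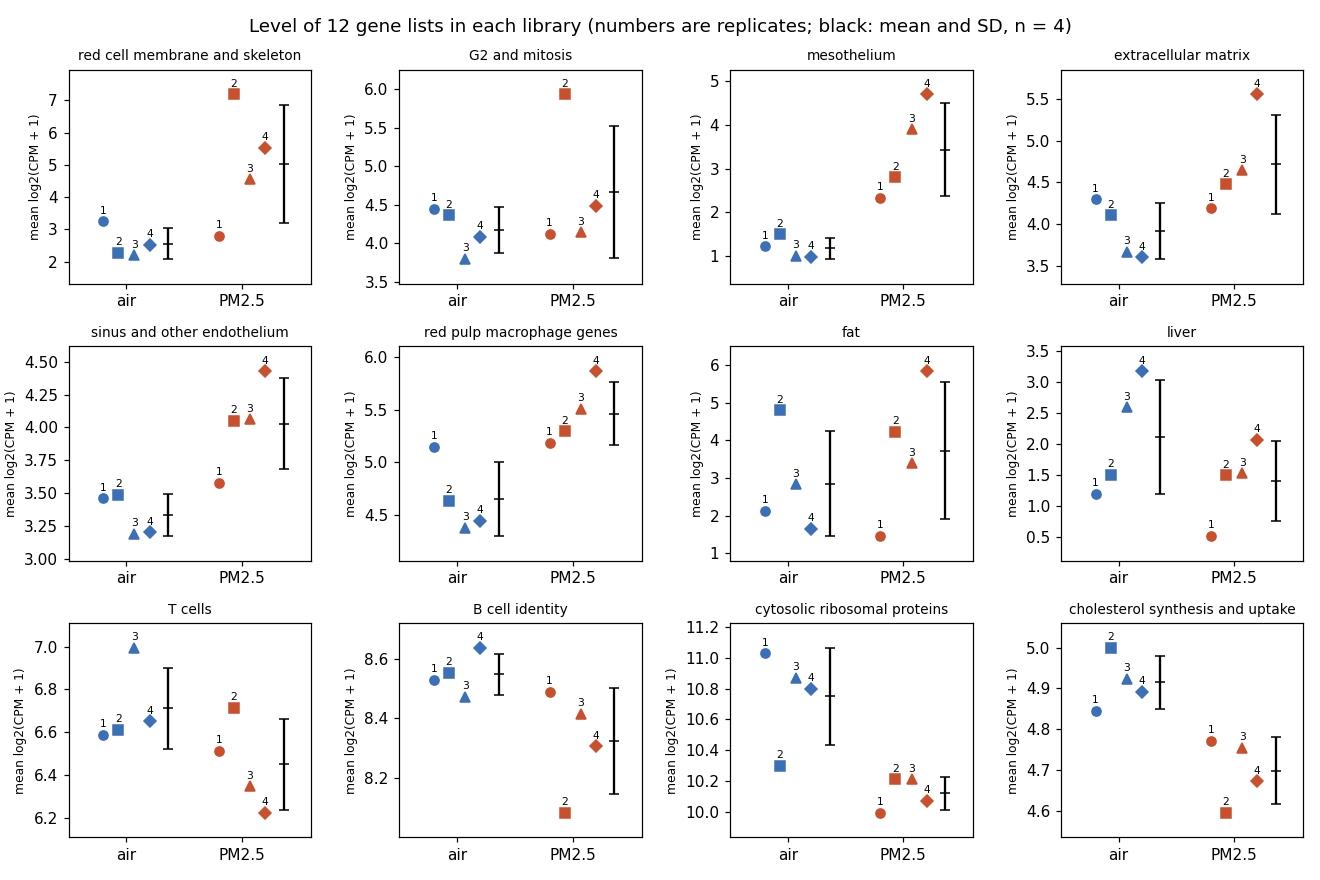
Each panel gives the mean log2(CPM + 1) over 1 gene list on the y axis for the 4 air and 4 PM2.5 libraries on the x axis, with replicate numbers beside the points and the mean and SD (n = 4) in black. Red cell and mitotic genes are highest in PM2.5 library 2, mesothelial, matrix and fat genes in PM2.5 library 4, and ribosomal protein and cholesterol genes are below the air points in all 4 PM2.5 libraries.

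Red cell genes had levels above every air library in 3 of the 4 PM2.5 libraries and within the air range in the other, library 1. Over the 5 erythroid lists 70 of 71 tested genes were higher, against 51.8% of all genes. Of the 71, 9 were higher without overlap (12.7%, against 4.41% of all genes). Their median log2 fold change was 2.24. None of the 71 passed the threshold in edgeR. At an unadjusted p under 0.05, 53 of them were higher, against 8.93% of all genes. At least 1 of the 71, Hbq1b, passed the count filter only through the PM2.5 group. It could only be counted as higher, which limits what these shares show. Slc4a1, the anion exchanger of the red cell membrane, stood at 23.6, 4.23, 4.18 and 5.12 CPM in air and at 11.7, 1259, 109 and 255 CPM in PM2.5 libraries 1 to 4. PM2.5 library 1 lay within the air range, and library 2 was the highest. Epor, the erythropoietin receptor, stood at 1.93, 0.856, 0.529 and 2.06 CPM in air and at 2.57, 50.9, 6.59 and 17.1 CPM in PM2.5 libraries, which did not overlap. Sptb, the beta spectrin of red cells, stood at 1.26, 1.5, 0.899 and 2.37 CPM in air and at 4.35, 241, 17.2 and 56.8 CPM in PM2.5 libraries, and Ank1, which anchors spectrin to the membrane, followed the same order. Both had groups that did not overlap.

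In each erythroid list, from regulators to end products, PM2.5 library 2 was the highest, followed by PM2.5 libraries 4, 3 and 1. For the transcription factors and progenitor genes the level was 3.43, 2.80, 2.70 and 3.03 in air and 3.24, 6.62, 4.43 and 5.28 in PM2.5 libraries. Klf1, which switches on adult globin genes, stood at 3.98, 0.161, 1.38 and 2.5 CPM in air and at 1.12, 88.0, 8.23 and 29.9 CPM in PM2.5 libraries. The 1 member with a lower mean was Bcl11a, which silences fetal globin genes and is also a B cell factor. Among the heme synthesis enzymes, all 14 had higher means and a median log2 fold change of 0.99. Alas2, the first enzyme of heme synthesis in erythroid cells, stood at 66.2, 10.2, 6.45 and 12.5 CPM in air and at 30.5, 657, 102 and 282 CPM in PM2.5 libraries. Among the membrane and skeleton genes all 18 were higher with a median of 4.51, and among the enzymes and late maturation genes all 20 with a median of 1.5. In each of these lists 3 PM2.5 libraries exceeded every air library, and library 1 did not.

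All 5 tested genes of the globin list were higher, 1 of them without overlap (20%, against 4.41% of all genes). Hbq1b, 1 of these 5, had 5 counts over the air and 348 over the PM2.5 libraries. It passed the count filter only through the PM2.5 group and could only be counted as higher, which limits what this share shows. The globin transcripts Hbb-bs and Hba-a1, products of late erythroid cells, overlapped between the groups. Hbb-bs, an adult beta globin, stood at 1519, 155, 224 and 304 CPM in air and at 481, 7129, 2039 and 4161 CPM in PM2.5 libraries. Hba-a1, an alpha globin, stood at 1438, 143, 176 and 379 CPM in air and at 391, 6823, 2014 and 5041 CPM in PM2.5 libraries. Air library 1 was thus above PM2.5 library 1 for both, and below it for Epor and Sptb. Alpha globin genes are near-identical copies, as are the adult beta globin genes, and reads may have been split between them. Leaving out PM2.5 libraries 2 and 4 together moved the median of the membrane list from 4.51 to 2.06 and that of the heme list from 0.99 to 0.20.

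Promoters of 4 erythroid genes are shown because these genes span the pathway from receptor through heme synthesis to globin, with the same 2 strings in capitals wherever they occur on either strand and other forms of the sites unmarked. TTATCT is AGATAA read on the other strand, and GGGTGTG is CACACCC. They lie at chr9:21963577-21963826 (minus strand), chrX:150547167-150547416 (plus strand), chr7:103827929-103828178 (minus strand) and chr16:58669958-58670207 (plus strand), 250 bases each from RefSeq on GRCm38.p6.
Epor: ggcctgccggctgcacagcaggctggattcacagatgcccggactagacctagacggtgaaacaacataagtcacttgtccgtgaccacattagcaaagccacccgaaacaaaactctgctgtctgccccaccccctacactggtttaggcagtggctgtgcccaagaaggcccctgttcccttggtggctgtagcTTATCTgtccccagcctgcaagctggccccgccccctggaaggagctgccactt
Alas2: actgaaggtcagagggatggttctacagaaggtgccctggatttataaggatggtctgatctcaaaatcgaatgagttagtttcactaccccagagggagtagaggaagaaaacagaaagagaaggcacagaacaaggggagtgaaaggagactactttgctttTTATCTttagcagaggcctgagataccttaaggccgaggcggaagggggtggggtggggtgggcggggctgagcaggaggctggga
Hbb-bs: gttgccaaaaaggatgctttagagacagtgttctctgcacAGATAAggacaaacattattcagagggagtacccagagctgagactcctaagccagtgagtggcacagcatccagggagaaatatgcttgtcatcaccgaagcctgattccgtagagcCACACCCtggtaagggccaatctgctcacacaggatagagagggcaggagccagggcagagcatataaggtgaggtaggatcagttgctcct
Cpox: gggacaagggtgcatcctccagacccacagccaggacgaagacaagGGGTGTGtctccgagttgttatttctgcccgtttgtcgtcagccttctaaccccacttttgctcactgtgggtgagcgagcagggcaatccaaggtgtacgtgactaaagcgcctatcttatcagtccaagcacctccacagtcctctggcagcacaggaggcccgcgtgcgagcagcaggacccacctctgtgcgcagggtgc
Epor holds AGATAA starting 54 bases before its start and Alas2 86 bases before, on the reverse strand in both. Hbb-bs holds AGATAA 210 and CACACCC 92 bases before its start, and Cpox, which encodes a late heme enzyme, holds CACACCC 204 bases before. Of the 71 tested erythroid genes, 54 matched the promoter table, with 69 promoters (250 bases before and 50 after the start). AGATAA occurred in 13 of these (18.8%) and in 11.2% of all 32851 promoters, and CACACCC in 9 (13%) and in 7.95%. These are matches of letters in a window and were not tested.

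For signals that act on erythroid expansion the median log2 fold change of 16 tested genes was 0.05, with 11 higher. Epor, described above and also on this list, was the 1 member higher without overlap (6.25% of the list, against 4.41% of all genes). Its log2 fold change was 3.86. Epo itself had 0 counts in all 8 libraries, which allows up to 3 counts in a group. Bmp4, a niche signal of splenic erythropoiesis, stood at 5.11, 3.90, 2.96 and 2.93 CPM in air and at 5.61, 6.99, 4.96 and 10.7 CPM in PM2.5 libraries. Kitl, the ligand of the progenitor receptor Kit, stood at 18.7 to 29.2 CPM in air and at 27.8 to 30.1 CPM in PM2.5 libraries. Both genes overlapped between the groups, with air library 1 the highest of its group. Vhl, which marks hypoxia-inducible factors for degradation, was the 1 member lower without overlap (6.25% of the list, against 4.54% of all genes), at 49.9 to 67.4 CPM in air and 40.3 to 47.4 CPM in PM2.5 libraries.

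Cell cycle genes followed PM2.5 library 2. 34 of 36 genes of G2 and mitosis were higher, none without overlap, with a median log2 fold change of 0.76. Mki67, a marker of cycling cells, stood at 143, 137, 89.7 and 116 CPM in air and at 131, 781, 135 and 175 CPM in PM2.5 libraries. Without PM2.5 library 2 the median of the list was 0.11. For S phase genes, the list level was 6.11 in PM2.5 library 2 and 5.03 to 5.27 in the 7 other libraries.

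Macrophage genes of the red pulp were higher in most cases. Of 24 tested genes 23 were higher, 7 without overlap (29.2%, against 4.41% of all genes), with a median log2 fold change of 0.62. Mrc1, the mannose receptor, stood at 6.24, 4.23, 1.96 and 3.49 CPM in air and at 12, 18.4, 21.0 and 42.2 CPM in PM2.5 libraries (log2 fold change 2.56, SE 0.43, edgeR adjusted p = 0.0845). Cd163, which takes up complexes of hemoglobin and haptoglobin, stood at 2.79, 2.25, 2.75 and 1.19 CPM in air and at 4.63, 10.5, 9.66 and 19.6 CPM in PM2.5 libraries. Csf1r, the growth factor receptor that macrophages depend on, stood at 132, 133, 97.5 and 135 CPM in air and at 192, 150, 180 and 212 CPM in PM2.5 libraries. These 3 genes were higher in every PM2.5 library, by several fold for the low-level Mrc1 and Cd163 and by less for Csf1r. Its ligand gene Csf1 showed the same, with 26.5 to 34.9 CPM in air and 37.8 to 63.2 CPM in PM2.5 libraries. Spic, a transcription factor that red pulp macrophages need, overlapped, at 29.0 to 58.0 CPM in air and 39.6 to 51.5 CPM in PM2.5 libraries. Timd4, a receptor for phosphatidylserine, was the 1 member with a lower mean (log2 fold change -0.19, SE 0.21).

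Genes that clear dying cells and handle iron gave smaller medians, 0.40 for 29 receptors and bridging proteins and 0.44 for 29 genes of heme breakdown and iron. The median for heme breakdown and iron was 0.015 without PM2.5 libraries 2 and 4, and lay between 0.20 and 0.64 with any 1 library left out. Mertk, which takes up apoptotic cells, stood at 23.4, 16.6, 8.94 and 11.8 CPM in air and at 26.6, 26.4, 27.0 and 29.0 CPM in PM2.5 libraries, the latter nearly equal. Its bridging ligand Gas6 stood at 23.7, 32.8, 24.5 and 24.8 CPM in air and at 37.2, 48.0, 70.3 and 112 CPM in PM2.5 libraries. Lrp1, an endocytic receptor that also takes up heme bound to hemopexin, stood at 18.7 to 25.2 CPM in air and at 43.7, 58.6, 73.7 and 169 CPM in PM2.5 libraries. Receptor and ligand were thus both higher in every PM2.5 library. Slc40a1, the iron exporter ferroportin, stood at 74.0, 28.6, 35.4 and 29.9 CPM in air and at 69.5, 94.6, 106 and 130 CPM in PM2.5 libraries, and Hmox1, which opens the heme ring, at 159, 55.2, 51.6 and 48.5 CPM and at 84.8, 111, 144 and 188 CPM. In both genes air library 1 alone lay in the PM2.5 range. Lysosomal genes had a median of 0.01, with 16 of 30 higher and none without overlap.

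Granulocyte and platelet genes varied by library. The level of early neutrophil granule genes, for which 3 of 7 were tested, was 1.02, 0.22, 0.30 and 0.38 in air and 0.78, 0.98, 1.99 and 3.46 in PM2.5 libraries. Ltf, the granule protein lactoferrin, stood at 5.25, 0, 0.264 and 0.374 CPM in air and at 57.4, 0.655, 18.2 and 30.9 CPM in PM2.5 libraries. Of the late granule and mature neutrophil genes 13 of 14 had higher means, none without overlap, with a median log2 fold change of 1.07. Cxcr2, a receptor of mature neutrophils that other cells also carry, was the 1 member with a lower mean, at 9.15 to 14.9 CPM in air and 6.61 to 9.12 CPM in PM2.5 libraries. Of the eosinophil, basophil and mast cell genes 9 of 21 were tested, with 6 higher and 3 lower means, and Epx and Siglecf were not tested. Without overlap 2 were higher (22.2%, against 4.41% of all genes) and 1 lower (11.1%, against 4.54%). Ccr3, the eotaxin receptor of eosinophils, had the largest fold change of the list. It stood at 1.06, 0.588, 0 and 0.249 CPM in air and at 2.43, 3.82, 3.96 and 7.41 CPM in PM2.5 libraries. Of the platelet genes 16 of 20 were higher, 2 without overlap (10%, against 4.41% of all genes). Gp5, a platelet surface glycoprotein, stood at 0.929, 1.55, 2.22 and 3.62 CPM in air and at 5.56, 11.2, 10.6 and 16.1 CPM in PM2.5 libraries. Pf4, a platelet chemokine, overlapped (log2 fold change 0.59, SE 0.39).

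Lymphocyte genes were lower by small amounts. All 20 tested B cell identity genes had a lower mean, against 48.2% of all genes, and 6 were lower without overlap, against 4.54% of all genes, with a median log2 fold change of -0.20. Pax5, the transcription factor that fixes B cell identity, stood at 955, 767, 1207 and 1093 CPM in air and at 643, 626, 692 and 710 CPM in PM2.5 libraries (log2 fold change -0.59, SE 0.15, edgeR adjusted p = 0.126). Ebf1, its partner, stood at 161 to 230 CPM in air and 120 to 150 CPM in PM2.5 libraries. Both transcription factors were lower in every PM2.5 library than in any of the air group. Of the T cell genes 23 of 26 were lower, 3 without overlap (11.5%, against 4.54% of all genes), with a median of -0.26. Cd3d, a chain of the T cell receptor complex, stood at 169, 105, 177 and 145 CPM in air and at 85.4, 82.2, 96.2 and 75.5 CPM in PM2.5 libraries (log2 fold change -0.81, SE 0.16, edgeR adjusted p = 0.104), while Cd3e of the same complex differed by 0.06 (SE 0.14). Cd3d and Cd3e had longest transcripts of 1617 and 2550 bases.

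Cytotoxic, dendritic and plasma cell genes gave no common direction. Ccl5, a chemokine of T and natural killer cells, stood at 166, 122, 137 and 156 CPM in air and at 104, 105, 98.5 and 86.4 CPM in PM2.5 libraries, without overlap. Gzma, a granzyme, went the other way, at 3.19, 0.642, 1.64 and 0.749 CPM in air and 3.74, 3.11, 8.92 and 11.2 CPM in PM2.5 libraries. Dendritic cell genes were higher in 11 and lower in 11 of 22 cases, with a median log2 fold change of 0.01. The plasma cell list had a median of 0.15. Jchain, which joins IgM and IgA into polymers, stood at 477, 648, 224 and 371 CPM in air and at 810, 979, 563 and 642 CPM in PM2.5 libraries. Immunoglobulin variable segments were mostly higher, 152 of 172 with a median of 0.82. Of the 172, 20 were higher without overlap (11.6%, against 4.41% of all genes) and none lower without overlap (against 4.54%). Ighv7-3 stood at 1.86, 3.96, 2.70 and 2.56 CPM in air and at 10.6, 10.1, 7.53 and 18.4 CPM in PM2.5 libraries. Constant regions had a median of 0.17 over 13 genes. Variable segments are a multigene family, and how reads that fit several segments were counted is not given in the sources used here.

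Ribosomal protein genes were lower without exception. Of 79 tested genes 41 were lower without overlap (51.9%, against 4.54% of all genes), and their median log2 fold change was -0.63. All 79 had an unadjusted p under 0.05 in edgeR and none passed the adjusted threshold, while DESeq2 called 76. Over all genes 7.76% were lower at that unadjusted p, and DESeq2 called 1.74% lower. Rpl36 stood at 1074, 638, 860 and 886 CPM in air and at 459, 511, 537 and 469 CPM in PM2.5 libraries. Rps13 stood at 1681, 1123, 1588 and 1636 CPM in air and at 818, 930, 970 and 882 CPM in PM2.5 libraries. Air library 2 was nearest to the PM2.5 range for both, and the PM2.5 libraries lay close together. The 46 genes of the large subunit had a median of -0.61 and the 31 named Rps a median of -0.68. Processed pseudogenes named after ribosomal proteins, to which reads of the parent genes can be assigned, were lower in 74 of 85 cases with a median of -0.57.

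Nuclear genes of the respiratory chain and other short, abundant transcripts shared the direction. 48 of 51 respiratory chain genes were lower, 14 without overlap (27.5%, against 4.54% of all genes), with a median log2 fold change of -0.42. The median was -0.47 for 23 genes of complex I and -0.45 for 10 of complex IV. Tmsb10, a small actin-binding protein, stood at 2033, 1461, 2112 and 2155 CPM in air and at 1049, 1156, 1148 and 1174 CPM in PM2.5 libraries (log2 fold change -0.78, SE 0.15, edgeR adjusted p = 0.0941). Psme2, a subunit of the proteasome activator, stood at 216 to 298 CPM in air and 158 to 195 CPM in PM2.5 libraries. Both lay lower in every PM2.5 library, as the rule by which they were named requires. The direction moved with gene length over the whole table. With genes in 5 bins by their longest transcript, the median log2 fold change was -0.16 in the shortest bin (12 to 1555 bases), -0.04, 0.01 and 0.04 in the next 3, and 0.11 in the longest (4956 to 123179 bases). The shortest bin without ribosomal protein genes still had a median of -0.15, and the 57 ribosomal protein genes within that bin had -0.63. Malat1, a long nuclear RNA, stood at 749, 1093, 781 and 744 CPM in air and at 1704, 1477, 1284 and 1319 CPM in PM2.5 libraries. Neat1, another long nuclear RNA, differed by -0.02 (SE 0.16). Both were chosen after their values were seen. RNA integrity values are not in the labels used here, and the part of length in these differences was not tested.

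**Figure D4:**
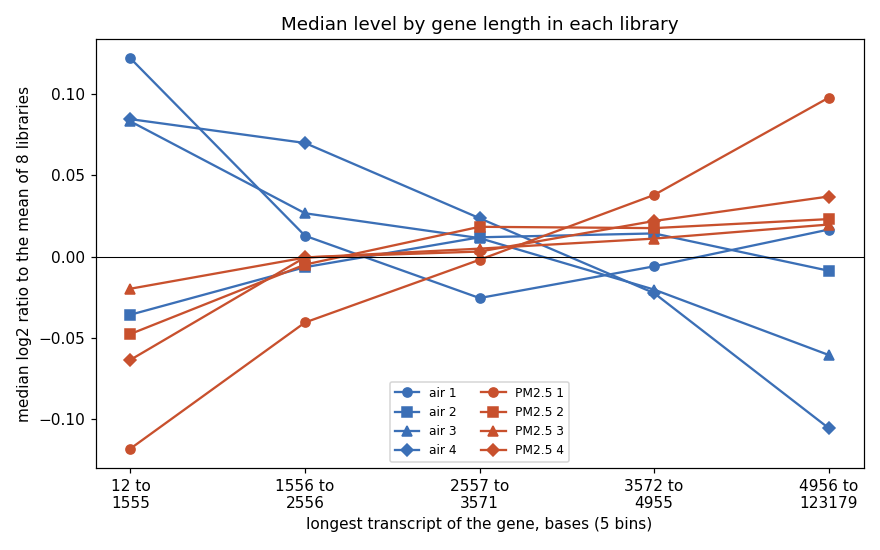
Each line is 1 library (blue air, red PM2.5), with 5 bins of the longest transcript of a gene on the x axis and, on the y axis, the median log2 ratio of its genes to the mean of the 8 libraries. In the shortest bin the medians are 0.12, -0.04, 0.08 and 0.08 for air libraries 1 to 4 and -0.12, -0.05, -0.02 and -0.06 for PM2.5 libraries 1 to 4, so air library 2 lies among the PM2.5 libraries there.

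Cholesterol synthesis genes were mostly lower. 19 of 23 tested genes were lower, 8 without overlap (34.8%, against 4.54% of all genes), with a median log2 fold change of -0.26. The list level was 4.60 to 4.77 in PM2.5 and 4.85 to 5.0 in air libraries. Cyp51, which removes a methyl group from lanosterol, stood at 76.3, 61.8, 64.9 and 90.5 CPM in air and at 40.0, 33.4, 51.3 and 47.8 CPM in PM2.5 libraries (log2 fold change -0.77, SE 0.17, edgeR adjusted p = 0.118). Hmgcs1, an early enzyme of the pathway, stood at 61.7 to 78.4 CPM in air and at 45.1 to 59.9 CPM in PM2.5 libraries. For both, the highest PM2.5 library lay below the lowest air library. Targets of the sterol sensor LXR had a median of 0.13 and glycolysis genes of -0.06.

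Responses often looked for after particle exposure had medians near that of all genes. Interferon-stimulated genes had a median log2 fold change of -0.06, with 18 of 38 higher. Inflammatory cytokines and chemokines were higher in 10 of 24 with a median of -0.12. Without overlap 3 of them were higher and 2 lower (12.5% and 8.33%, against 4.41% and 4.54% of all genes). A further 10 listed genes of this group, Il6 and Nos2 among them, did not pass the filter on low counts. Antioxidant genes regulated by NRF2 were higher in 12 of 28 with a median of -0.01. Aryl hydrocarbon receptor genes had a median of 0.13, with 6 of 9 tested higher and none of these without overlap, and Cyp1a1, its best known target, had 10 counts over the air and 12 over the PM2.5 libraries. Single members followed the order of PM2.5 libraries seen for erythroid genes. Rsad2, an antiviral enzyme, stood at 13.3, 3.48, 8.88 and 4.37 CPM in air and at 7.48, 129, 28.1 and 56.7 CPM in PM2.5 libraries, and Gclm, of glutathione synthesis, at 14.5 to 21.2 CPM in air and at 16.4, 96.5, 21.8 and 44.4 CPM in PM2.5 libraries.

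Of the genes that respond to glucocorticoids 12 of 16 were higher, 4 without overlap (25%, against 4.41% of all genes). Their median log2 fold change was 0.55, and their level was 4.64 to 4.94 in air and 5.10 to 5.57 in PM2.5 libraries. Errfi1, a feedback inhibitor of growth factor receptors, stood at 16.9, 14.2, 14.1 and 20.7 CPM in air and at 27.0, 25.8, 35.7 and 44.9 CPM in PM2.5 libraries. Per1, a clock gene that glucocorticoids also induce, stood at 14.2, 40.3, 28.0 and 38.0 CPM in air and at 47.6 to 62.2 CPM in PM2.5 libraries. Neither gene overlapped between the groups. Tsc22d3, a common marker of glucocorticoid action, had a lower mean (log2 fold change -0.08, SE 0.19). Of the clock genes 11 of 19 were higher with a median of 0.06. Heat shock genes were mixed, with 13 of 19 higher. Hspb1, a small heat shock protein, stood at 4.91, 4.87, 1.38 and 3.87 CPM in air and at 11, 5.95, 20.02 and 56.2 CPM in PM2.5 libraries.

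**Figure D5:**
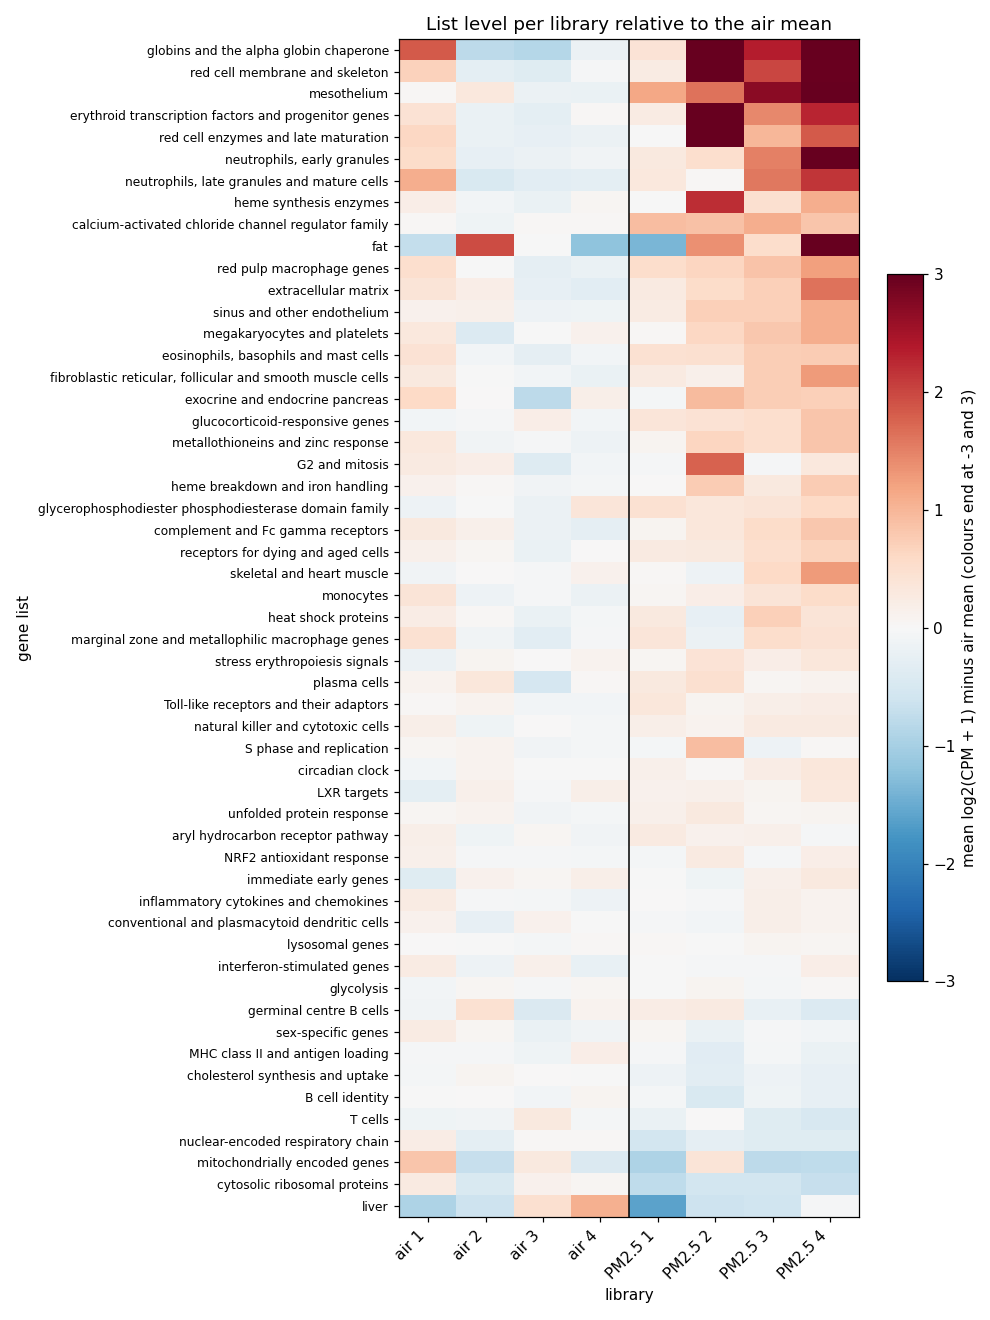
Each row is 1 of 54 gene lists and each column 1 library, coloured by the list level (mean log2(CPM + 1)) minus its mean over the 4 air libraries, with colours ending at -3 and 3 and rows ordered by the PM2.5 mean. PM2.5 library 1 is pale in the erythroid rows that are dark in PM2.5 libraries 2 to 4, air library 1 is red in the globin row, and the ribosomal protein row is blue in all PM2.5 libraries.

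Transcripts of neighbouring tissues were present in some libraries, and the levels of the fat and liver lists overlapped between the groups. All 10 tested fat genes had higher means (median log2 fold change 1.31), and 6 of 8 tested liver genes had lower means (median -2.06). None of these genes separated without overlap. With libraries left out the medians ranged from -1.21 to 3.10 for fat and from -2.93 to 0.49 for liver. Alb, the liver's albumin, stood at 0.531, 0.749, 30.5 and 55.3 CPM in air and at 0.234, 1.15, 3.67 and 5.97 CPM in PM2.5 libraries, so that air libraries 3 and 4 were high. The fat gene Adipoq stood at 0.531, 16.9, 1.64 and 0.561 CPM in air and at 0.421, 10.4, 3.87 and 38.1 CPM in PM2.5 libraries, so that air library 2 and PM2.5 libraries 2 and 4 were high. The level of the fat list was 2.13, 4.80, 2.83 and 1.64 in air and 1.47, 4.225, 3.39 and 5.84 in PM2.5 libraries. The insulin genes Ins1 and Ins2 had 0 counts in all 8 libraries. The mesothelial level was 1.23, 1.51, 1.01 and 0.98 in air and 2.33, 2.80, 3.89 and 4.69 in PM2.5 libraries. PM2.5 library 4 was the highest for fat, mesothelium and matrix. The part of attached tissue in the mesothelial and matrix values was not tested.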

How the data were processed

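Polyadenylated RNA of 8 whole spleens was analysed, 4 per group. The table the authors deposited holds raw counts, 1 whole number for each Ensembl gene and library, not normalized. Per the submitters' processing notes FastQC 0.10.1 and HTSeq 0.10.0 were used, with builds mm10 and GRCm38. Strand setting, annotation release and aligner were not given in the sources used here, so antisense and overlapping genes cannot be separated. Symbols, places and longest transcripts came from GENCODE M21, which matched 52133 of 55414 identifiers.

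The counts were tested with edgeR 4.0.16 in R 4.3.3: filterByExpr (minimum count 10, minimum total count 15), TMM scaling and the two-sided quasi-likelihood test on 2 groups, adjusted by Benjamini-Hochberg over 16551 genes with a threshold of 0.05. The filter worked by group, so a gene could pass it through 1 group alone. SE is the fold change divided by the square root of F. CPM are relative to TMM-scaled totals. A list level is the mean log2(CPM + 1) of its tested members, with a pseudocount of 1. The fit was checked on simulated data. DESeq2 1.42.0, limma-voom (limma 3.58.1), other scalings, no filter, a replicate block, a fit of all 18 libraries and omissions of libraries were alternatives. Same-numbered libraries of the 2 groups had deviations that correlated between -0.14 and 0.06, so numbers were not taken as pairs.

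The comparison, the 54 gene lists and the tests were chosen with earlier results of these data known. Named were the 15 non-overlapping genes of smallest p per direction, up to 4 of smallest p per list, defining list members and 8 genes that stood apart in 1 PM2.5 library. Clec4g, Malat1 and Neat1 were chosen after their values were seen. The p-values set the difference between groups against the spread between libraries of a group. Whether a library is 1 mouse or a pool is not given, so what that spread stands for is not known.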

Additional observations from a re-analysis of the deposited data

Results flagged for a closer look

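In groups of 4 libraries, the highest or lowest library was set against Dixon's critical value for the gap to its neighbour over the whole range of the group. Of 288 groups examined over the 54 list levels and 90 of the genes named, 25 passed. Chance passes about 1 in 20, and the lists and genes share members and libraries.

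Air library 1 stood above the other air libraries most often. Its list level was 4.48 for red cell enzymes and late maturation, 2.82 for late neutrophil granules and mature cells and 6.11 for NRF2 genes. Among genes it was apart for Alas2 at 66.2 CPM, Slc4a1 at 23.6 CPM, Hbb-bs at 1519 CPM, Hmox1 at 159 CPM, Slc40a1 at 74.0 CPM, Ltf at 5.25 CPM, Hs6st2 at 3.05 CPM and Clca3a1 at 8.56 CPM. Red cell, iron and granule genes are thus among those in which 1 air library lay toward or within the PM2.5 range.

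Air library 2 was apart for Adipoq at 16.9 CPM, Eng, an endothelial co-receptor of the TGF-beta family, at 40.7 CPM, Gas6 at 32.8 CPM, Malat1 at 1093 CPM and Muc16 at 0.428 CPM. It was the lowest air library for Rps13 at 1123 CPM and for the Clca family, with a level of 1.6. Air library 3 was the highest for the T cell list with a level of 6.99 and the lowest for Csf1r at 97.5 CPM.

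Among PM2.5 libraries, library 2 was the highest for Mki67 at 781 CPM, Gpcpd1 at 217 CPM, the S phase list with a level of 6.11 and the mitochondrially encoded genes with a level of 8.25. Library 4 was the highest for interferon-stimulated genes with a level of 5.32.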

How the results depend on the processing

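edgeR called 2 genes, both higher. With other choices it called 1 with DESeq2 size factors (Gdpd2 was lost, adjusted p = 0.0514), 461 without a filter (389 higher and 72 lower) and 1050 in a fit of all 18 libraries (687 and 363). In that fit 1 macrophage PM2.5 library, grouped by its title, carries an air treatment tag. DESeq2 called 830 (542 and 288) and limma-voom 1. With 1 library left out the count was 0 to 219, 0 to 136 higher and 0 to 150 lower, the largest without air library 2. Without air libraries 3 and 4 together, which held liver transcripts, it was 0, and likewise 0 without PM2.5 libraries 2 and 4. A replicate block gave 3 genes, all higher, with Gdpd2 (adjusted p = 0.0465) among them and Clca3a1 not (0.0989), but the same-numbered libraries did not deviate together (correlations -0.14, -0.06, 0.06 and -0.05).

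Of 54 list medians, 17 changed sign in at least 1 alternative. Of 90 genes named, 7 changed sign in at least 1, all uncalled. With single libraries left out, the log2 fold change of Adipoq was -0.012 to 3.82, Cd3e -0.011 to 0.15, Neat1 -0.16 to 0.12 and Tsc22d3 -0.22 to 0.10. Without PM2.5 libraries 2 and 4 Adipoq was -1.19, Bcl11a 0.025, Cd3e -0.0020, Clca2 0.12 and Neat1 0.22. Without air libraries 3 and 4 Alb was 2.08, Clca2 0.16 and Tsc22d3 0.21, and without a filter Neat1 was 0.0077. The causes were not tested.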

Other observations

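Some genes were high in 1 PM2.5 library alone. Igkv4-63, a kappa light chain variable segment, stood at 348 CPM in PM2.5 library 1 and at 2.99 to 15 CPM in the 7 other libraries. Igkv9-124 stood at 199 CPM in PM2.5 library 2 and at 8.43 to 29.9 CPM elsewhere. Cbr2, a carbonyl reductase that is abundant in mouse lung, stood at 88.1 CPM in PM2.5 library 1 and at 0 to 3.09 CPM in the others. Samd11 stood at 25.2 CPM in PM2.5 library 2 and at 0.465 to 3.75 CPM in the others.

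Pck1, a gluconeogenic enzyme of liver, kidney and fat, stood at 0.0664, 13.7, 1.64 and 1.37 CPM in air and at 0.234, 4.04, 4.11 and 28.9 CPM in PM2.5 libraries, high where Adipoq was high. Cfd, the fat gene adipsin, stood at 138 CPM in air library 2 and at 348 CPM in PM2.5 library 4. Tnnt2, a troponin of heart muscle, stood at 0.531 to 1.59 CPM in air and at 3.27, 1.86, 8.13 and 22.9 CPM in PM2.5 libraries, without overlap, whereas the skeletal troponins Tnni2 and Tnnt3 overlapped. Mitochondrially encoded genes were lower in 12 of 13 cases with none without overlap. The highest of them, mt-Cytb, stood at 12320, 4162, 8265 and 5133 CPM in air and at 3217, 8484, 3424 and 3567 CPM in PM2.5 libraries.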
